A study of Mus musculus with 160 samples.

Results

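Nuclear genes for the subunits of the mitochondrial respiratory chain were followed in 5 tissues of R6/2 mice. The set holds every protein-coding gene whose mouse symbol begins with Ndufa, Ndufb, Ndufc, Ndufs, Ndufv, Uqcr, Cox4i, Cox5, Cox6, Cox7, Cox8 or Atp5, together with Sdha, Sdhb, Sdhc, Sdhd and Cyc1. This rule picked 94 of the 43432 genes in the tables and left out 11 pseudogenes with such names. By role, the members are 7 core and 29 accessory subunits of complex I, 8 complex I assembly factors, 4 subunits of complex II, 9 of complex III, 18 of complex IV and 16 of ATP synthase. The remaining 3 are related proteins that share a prefix, namely Ndufa4l2, Cox7a2l and Atp5s. The rule reads names only, although it was chosen with earlier results of these data known.

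RNA was sequenced from 32 mice, each of which gave 1 library from each of cortex, striatum, heart, liver and tibialis muscle, 160 in all. In each tissue 8 R6/2 mice had received vehicle, 8 R6/2 mice CHDI-00390576 at 30 mg/kg, 8 R6/2 mice the same compound at 100 mg/kg and 8 wild-type mice vehicle, with 4 males and 4 females in each arm. By the series title the compound inhibits the class IIa enzymes among the histone deacetylases, and every mouse was dosed by mouth 2 times a day on a C57BL/6J background. The R6/2 genotype is given as Tg(HDexon1)62Gpb, a randomly inserted transgene that expresses exon 1 of human huntingtin with an expanded CAG repeat from the human huntingtin promoter, beside both mouse copies of the gene. The labels give no age, and no wild-type mouse received the compound.

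The respiratory chain passes electrons from NADH (complex I) and succinate (complex II) through complex III to complex IV, which reduces oxygen, while complexes I, III and IV pump protons that drive ATP synthase. Nearly all subunits of these machines are encoded in the nucleus, a few in the mitochondrial genome, and some complex IV subunits come as a pair of genes, of which one product is found in heart and skeletal muscle and the other in most tissues. Loss of respiratory activity in brain and muscle has long been studied in Huntington's disease and its mouse models.

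The libraries held between 30.1 and 39 M counts each. Most members are short: the longest annotated transcript has a median of 1064 bases, it is under 1500 bases for 62 of the 94 members and at least 4000 bases for 4. The members' share of a library therefore has to be read beside its mix of lengths, taken here as the log2 ratio of counts in other genes of at least 4000 bases over those under 1500 bases. In 14 libraries this ratio was more than 3 scaled deviations below the median of the library's own arm and tissue. Cortex and striatum held 4 each, of which 3 were at 100 mg/kg and 1 was R6/2 vehicle. Each of the other tissues held 2, of which 1 was at 100 mg/kg. The other was R6/2 vehicle in liver and wild type in heart and tibialis. No library at 30 mg/kg was among the 14. The main counts and medians below are given with and without these libraries where they move. Another 2 libraries, from wild-type females in cortex and in striatum, did not match their sex label, and the 1 count of called members that moved by over 1.5 times without them is in the closing section.

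Wild-type mice set the scale for these genes. On the deposited FPKM scale, which divides by transcript length and so allows genes to be compared, 93 of the 94 members were above 0 in wild-type tissue, and heart had the highest mean of the 5 tissues for 80 of them. Tibialis muscle came second after heart for 75 members, and for 35 of these the 8 heart libraries all lay above the 8 tibialis libraries. The ATP synthase subunits summed to 13120 ± 1815 FPKM in heart, 9206 ± 746 in tibialis, 3319 ± 129 in liver, 2906 ± 179 in striatum and 2795 ± 187 in cortex (SD, n = 8 each). Complex IV summed to 9963, 6774, 2248, 2743 and 2700 FPKM in the same order of tissues, so that liver was lowest for complex IV but not for ATP synthase. Complex II, the succinate dehydrogenase that also belongs to the citric acid cycle, reached 1390 ± 22.6 FPKM in heart and 288 in both brain regions. Atp5b, the catalytic beta subunit of ATP synthase, was the most abundant member at a mean of 2147 FPKM in heart, and Cox8c was listed at 0 in every wild-type library.

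**Figure D1:**
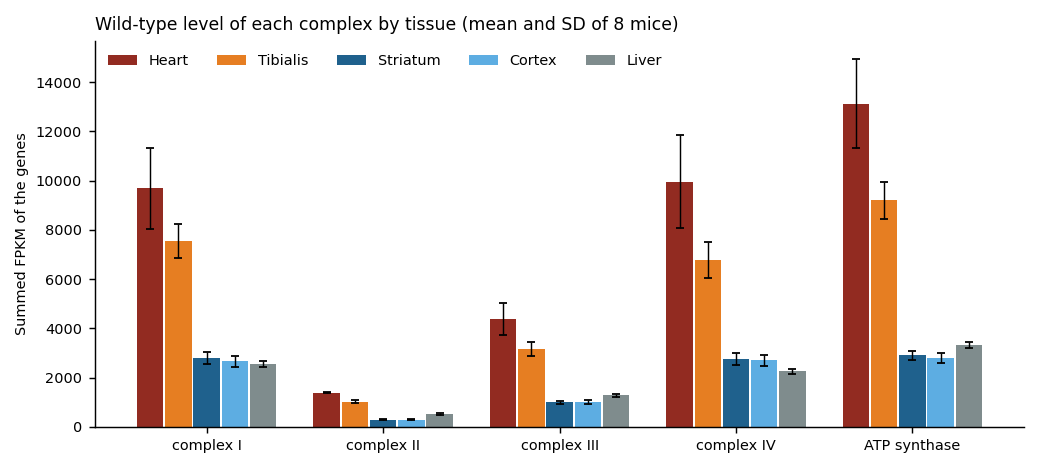
Summed FPKM of the members of each complex (vertical axis, FPKM) in wild-type mice, by tissue; bars are means of 8 mice and error bars are SDs. Heart stands highest for each complex, with ATP synthase at 13120 FPKM, and tibialis muscle is second.

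The order of the other 18 members did not begin with heart and tibialis; 7 of them were assembly factors, 6 complex IV subunits, and the rest Ndufa12, Ndufb5, Atp5e, Atp5s and Cox7a2l. Among the complex IV gene pairs Cox8a, the widely expressed form of subunit 8, had its highest wild-type mean in cortex at 318 FPKM and its lowest in tibialis at 23.3 FPKM. Its muscle and heart counterpart Cox8b stood at 739 FPKM in tibialis and 0.20 FPKM in liver. Cox6a1, the widely expressed form of subunit 6a, averaged 302 FPKM in striatum and 19.1 FPKM in tibialis, whereas Cox6a2, the heart and muscle form, averaged 991 FPKM in heart and 0.20 FPKM in liver. Cox7a1, the heart and muscle form of subunit 7a, ran from 1.26 FPKM in striatum to 1091 FPKM in heart, and its partner Cox7a2 only from 129 FPKM in liver to 328 FPKM in heart.

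The stretches in front of these genes differ in composition, and they are shown because the ratios within these pairs carry one of the main results further on. The 250 bases before the annotated start of transcription (RefSeq, GRCm38.p6) are given 5′ to 3′ on the strand of the gene, with CpG dinucleotides in capitals. The muscle forms are Cox7a1 at chr7:30183921-30184170 (plus strand) and Cox8b at chr7:140900447-140900696 (minus strand), and the widely expressed forms are Cox7a2 at chr9:79759854-79760103 (minus strand) and Cox8a at chr19:7217617-7217866 (minus strand).
Cox7a1: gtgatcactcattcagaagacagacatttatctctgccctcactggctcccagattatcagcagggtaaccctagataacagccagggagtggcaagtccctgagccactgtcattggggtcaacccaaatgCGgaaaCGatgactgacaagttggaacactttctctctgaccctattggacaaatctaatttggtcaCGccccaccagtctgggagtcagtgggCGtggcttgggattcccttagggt
Cox8b: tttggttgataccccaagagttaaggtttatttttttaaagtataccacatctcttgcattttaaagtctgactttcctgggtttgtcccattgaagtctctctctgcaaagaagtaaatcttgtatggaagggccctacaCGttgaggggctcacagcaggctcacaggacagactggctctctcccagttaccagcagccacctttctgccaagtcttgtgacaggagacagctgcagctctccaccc
Cox7a2: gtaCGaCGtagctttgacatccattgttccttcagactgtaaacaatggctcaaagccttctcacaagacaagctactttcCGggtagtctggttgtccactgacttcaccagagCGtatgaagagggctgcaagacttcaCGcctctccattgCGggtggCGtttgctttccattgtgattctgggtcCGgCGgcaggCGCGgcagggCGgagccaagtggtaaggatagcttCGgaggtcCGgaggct
Cox8a: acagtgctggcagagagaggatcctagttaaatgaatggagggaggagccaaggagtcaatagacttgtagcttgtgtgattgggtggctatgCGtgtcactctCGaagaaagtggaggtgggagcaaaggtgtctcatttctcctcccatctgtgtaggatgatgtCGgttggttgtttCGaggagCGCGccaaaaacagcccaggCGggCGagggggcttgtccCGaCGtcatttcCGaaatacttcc
The windows hold 4 CpG in Cox7a1 and 1 in Cox8b, against 14 in Cox7a2 and 11 in Cox8a. Over the 76 of 94 members with an entry in the RefSeq promoter table the median was 15 CpG (1 to 35), and over all 27025 genes of that table it was 6 (0 to 56). Both muscle forms thus lay below the median member.

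Promoters of the respiratory chain genes were also searched for 4 short motifs on both strands, from 250 bases before to 50 bases after the start. GCGCATGCG, the core that nuclear respiratory factor 1 (NRF1) binds, was present in 10 of 76 members (13.2%) and in 1.95% of all 27025 genes. AAGATGGCG, the YY1 motif, was present in 8 members (10.5%) and in 1.64% of all genes, TCAAGGTCA of the oestrogen-related receptors in 2 members, Atp5g3 and Sdhd (2.63%), and in 0.47% of genes, and TATTTTTAG or TATTTATAG of MEF2 in 0 members and in 1.11% of genes. The 4 sites below belong to genes that the comparisons turn on: Uqcrc1 (chr9:108936668-108936697, plus strand, bases 21 to 50 after the start), Ndufaf4 (chr4:24897960-24897989, plus strand, bases -123 to -94), Ndufs7 (chr10:80249462-80249491, plus strand, bases 14 to 43) and Ndufa9 (chr6:126849097-126849126, minus strand, bases 19 to 48). Capitals mark the NRF1 match in the first pair, where the matches on both strands overlap, and the YY1 match in the second pair.
Uqcrc1: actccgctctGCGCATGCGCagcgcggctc
Ndufaf4: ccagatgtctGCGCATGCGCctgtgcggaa
Ndufs7: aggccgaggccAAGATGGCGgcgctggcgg
Ndufa9: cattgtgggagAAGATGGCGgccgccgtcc
A match describes letters in this window and no binding was measured.

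In tibialis muscle the R6/2 genotype was compared with wild type among vehicle-dosed mice, and here the respiratory chain genes fell relative to the other genes of the muscle. In counts scaled by TMM, a scaling that sets the bulk of genes to no change, 79 of 92 tested members were lower in R6/2 and 1, Cox8a, was higher, with a median log2 fold change of -0.44 (edgeR quasi-likelihood test, Benjamini-Hochberg adjusted p under 0.05 over all genes). Of all 15760 genes tested, 22.2% were lower and 23.6% higher, with a median of 0.03. On FPKM the direction was the opposite, with 52 members higher, 2 lower and a median of 0.22, beside 83.7% higher and 3.47% lower among all genes and a median of all genes of 0.63. Relative to that median the members were lower by 0.42 on FPKM and by 0.47 on TMM-scaled counts. In bulk tissue a smaller number of cells of a type and less RNA per cell cannot be told apart.

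Complex I core subunits, which carry the electron path from NADH, had the lowest role median in these scaled counts: 7 of 7 were lower with a median log2 fold change of -0.67, against -0.02 on FPKM, where 5 of 7 values were negative and 1 passed in each direction. Ndufs7 binds the last iron-sulfur cluster of that path. It had 80.4, 101 and 115 CPM (counts scaled by depth and TMM, as lowest, median and highest of 8) in R6/2 vehicle mice. Wild-type mice had 156, 210 and 273 CPM. The groups did not overlap, and the log2 fold change was -1.13 (SE 0.13, adjusted p = 1.4e-08), or -0.47 on FPKM. Of the 29 accessory subunits 28 were lower, with a median of -0.48 (0.18 on FPKM). Ndufa5, an accessory subunit of the peripheral arm, had 98.7, 116 and 135 CPM in R6/2 and 184, 194 and 235 CPM in wild type, a difference of -0.78 on the log2 scale (-0.14 on FPKM). Ndufa1 was the accessory subunit that missed the threshold (-0.23, adjusted p = 0.055; 0.43 on FPKM). Among the assembly factors 5 of 8 were lower, while on FPKM 6 were higher. Ndufaf4, one of those lower in scaled counts, had 30.0, 34.2 and 37.1 CPM in R6/2, against 52.3, 54.9 and 68.5 CPM in wild type (-0.75; -0.12 on FPKM).

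Complexes II and III were lower throughout in the scaled counts of R6/2 muscle, 4 of 4 members with a median of -0.50 and 9 of 9 with a median of -0.63; on FPKM all 4 members of complex II had positive differences (0.04 to 0.47), and complex III had a median of 0.02 with 5 of 9 positive. Uqcrc1, a core protein of complex III (chr9:108936633-108949623, GRCm38, plus strand), had 358, 393 and 439 CPM in R6/2 and 623, 775 and 897 CPM in wild type. It had the smallest p of all members in muscle (log2 fold change -0.94, SE 0.07, adjusted p = 5.6e-13), with a gap between the groups, and it kept a negative difference of -0.29 on FPKM. Cyc1, the cytochrome c1 that hands electrons to cytochrome c, had 248, 282 and 306 CPM in R6/2, against 387, 467 and 536 CPM in wild type (-0.74; -0.09 on FPKM). Sdha, the flavoprotein of succinate dehydrogenase, had 885, 921 and 1048 CPM in R6/2, against 1317, 1400 and 1588 CPM in wild type (-0.61, SE 0.06, adjusted p = 3.2e-10; 0.04 on FPKM). For Sdhc, a membrane anchor of the same enzyme, the groups overlapped and the difference was -0.17 (adjusted p = 0.022; 0.056 without the libraries of few long transcripts).

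ATP synthase was lower for 16 of 16 members in the scaled counts, with a median of -0.50 (0.15 on FPKM). Atp5a1, the alpha subunit of the catalytic head, had 2050, 2132 and 2409 CPM in R6/2, against 2931, 3266 and 3577 CPM in wild type (-0.57, SE 0.05, adjusted p = 1.5e-10; 0.07 on FPKM). Complex IV was the mixed complex, with 9 of 16 lower, 1 higher and a median of -0.30 (0.36 on FPKM). Cox4i1, the regulatory subunit 4, differed by -0.43 (adjusted p = 0.00017; 0.22 on FPKM), whereas Cox6c, Cox7a2 and Cox6a1 had -0.10, -0.07 and -0.10 and did not pass. Cox8a, the scarce form of subunit 8 in muscle, had 17.4, 25.4 and 27.2 CPM in R6/2, against 15, 17 and 20.4 CPM in wild type. Those groups overlapped, and the difference was 0.46 on scaled counts (SE 0.12, adjusted p = 0.0025) and 1.10 on FPKM.

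**Figure D2:**
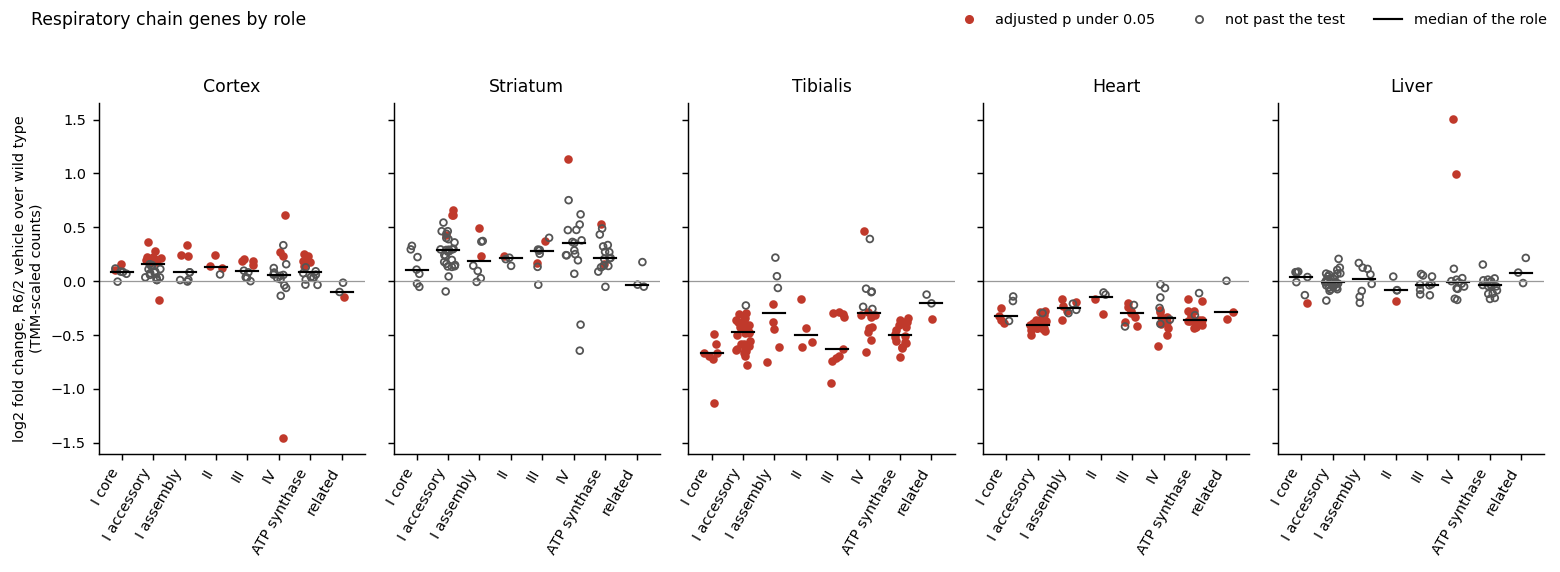
Log2 fold change of R6/2 vehicle over wild type (vertical axis, TMM-scaled counts) for every tested member, by role (horizontal axis) in the 5 tissues; filled points passed the test (adjusted p under 0.05) and lines are role medians. Points lie below 0 in heart and tibialis muscle except Ndufa4l2 in heart and Cox8a, Cox6b2, Ndufaf8 and Ndufaf2 in tibialis. On FPKM the median of all members in tibialis turns to 0.22. In cortex, striatum and liver most points lie around or above 0. Exceptions include Cox6a2 at -1.45 in cortex and -0.64 in striatum, and Cox4i2 at -0.40 in striatum.

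Measures of composition moved with the muscle result. The log2 ratio of long over short transcripts had a median of 1.97 (1.78 to 2.24) in R6/2 and 1.31 (0.97 to 1.54) in wild-type muscle, without overlap. With this ratio as a covariate 18 members were higher and 30 lower, with a median of 0.00. Because the ratio is apart between the genotypes, that fit cannot separate genotype from composition. No share of all genes is given for it. Without the 2 libraries of few long transcripts 79 members were lower and 2 higher, beside 22.8% lower among all genes. The members together took 3.39, 3.49 and 3.72% of nuclear counts in R6/2 (lowest, median and highest), against 3.05, 3.21 and 3.79% in wild type, and the ranges overlapped. R6/2 mice lay entirely below wild-type mice for 58 members in scaled counts, as they did for 10.5% of all genes. Fast fibre markers fell for 7 of 7 genes (Myh4 by 2.10 and Actn3 by 2.14 on the log2 scale), and their summed FPKM was 18420, 21750 and 23570 in R6/2, against 46080, 46970 and 48220 in wild type. Of 8 slow and oxidative fibre markers 1, Atp2a2, was higher (0.77) and 1, the oxygen store myoglobin (Mb), lower (-1.89). The part of the fibre markers in the members' values was not tested.

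**Figure D3:**
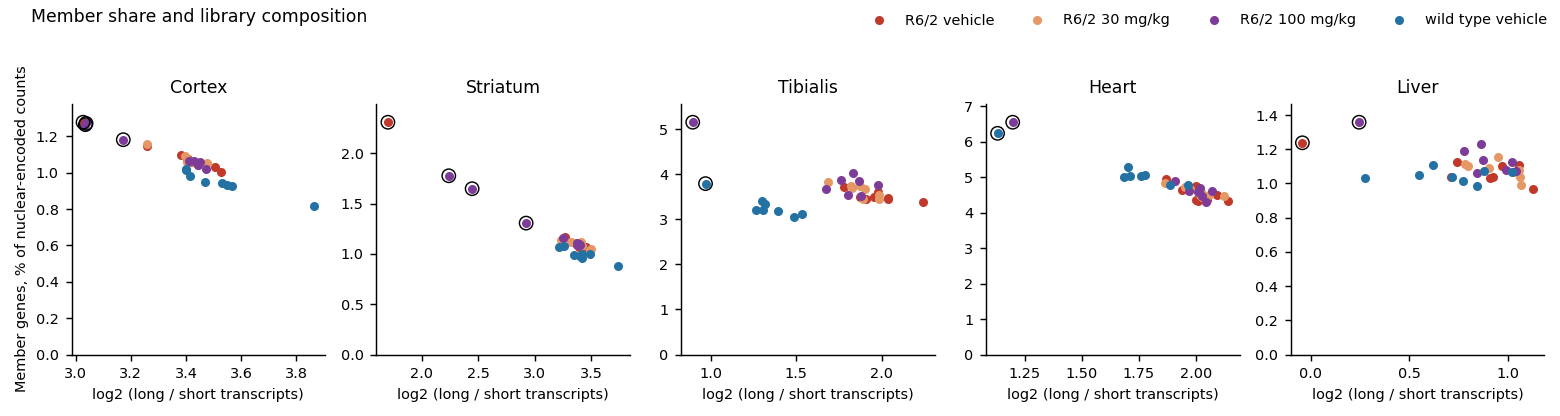
Members' share of nuclear counts (vertical axis, percent) against the log2 ratio of counts in long over short transcripts (horizontal axis), 1 point per library, by tissue and arm; circles mark the 14 libraries of few long transcripts. The marked libraries lie to the left, and the highest share in striatum, 2.31% in 1 R6/2 vehicle male, belongs to one of them.

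The heart comparison also gave falls alone. In R6/2 vehicle hearts 72 of 92 tested members were lower than in wild type and 0 higher, with a median log2 fold change of -0.36, and DESeq2 gave 79 lower and 0 higher. The value of 1 of the 92 members, Ndufa4l2 at 0.00, was above 0. Among all 15812 genes 7.46% were lower and 6.96% higher. On FPKM the direction was the same, with 32 members lower and a median of -0.23 beside 1.97% lower among all genes and a median of all genes of 0.12. The count by role was 4 of 7 complex I core and 28 of 29 accessory subunits, 5 of 8 assembly factors, 2 of 4 in complex II, 7 of 9 in complex III, 10 of 16 in complex IV and 14 of 16 in ATP synthase, with role medians from -0.41 (accessory) to -0.14 (complex II). Without the 2 hearts of few long transcripts 80 members were lower with a median of -0.27, beside 10.1% of all genes.

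Cox7a1 (chr7:30184144-30186078, GRCm38, plus strand), the heart and muscle form of subunit 7a, fell the most among the members of the heart named here. It had 238, 276 and 331 CPM in R6/2 and 349, 405 and 627 CPM in wild type, with no overlap (log2 fold change -0.60, SE 0.11, adjusted p = 0.0011). Without the hearts of few long transcripts the difference was -0.49. Ndufa5 had 139, 159 and 181 CPM in R6/2, against 190, 219 and 331 CPM in wild type, and Cox5b, which lies in the matrix-facing part of complex IV, had 202, 222 and 247 CPM in R6/2, against 250, 302 and 471 CPM in wild type. Both differed by -0.50 with no overlap. Ndufv3 and Ndufc1, accessory subunits of complex I, differed by -0.46 and -0.45, and in both the groups overlapped. In all, the R6/2 hearts lay entirely below the wild-type hearts for 25 members, and for 1.01% of all genes.

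Some abundant members of the heart changed little, while others, such as Cox7a1 (-0.60) and Atp5g1 (-0.39), fell more. Atp5b had 3540, 3726 and 4087 CPM in R6/2 hearts, against 3942, 4229 and 4401 CPM in wild-type hearts (-0.16, SE 0.04, adjusted p = 0.0072). Sdha had 1194, 1283 and 1422 CPM in R6/2 and 960, 1454 and 1506 CPM in wild type. Its difference of -0.10 did not pass (adjusted p = 0.33), although without the hearts of few long transcripts it was -0.17 with an adjusted p of 0.0025. Cox4i1 had -0.25 and did not pass (adjusted p = 0.07).

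The long-over-short ratio was 2.01 in R6/2 and 1.74 in wild-type hearts at the median, and with it as a covariate 24 members were lower with a median of -0.10. No share of all genes is given for that fit. Cardiomyocyte markers fell for 5 of 7 genes, with Myh6 by 0.30 and Myl3 by 0.47 on the log2 scale, and their summed FPKM was 17180, 19050 and 20490 in R6/2, against 20080, 21730 and 24440 in wild type. Leukocyte markers were higher for 4 of 6 genes (142, 238 and 391 FPKM in R6/2, against 111, 122 and 169 in wild type) and fibroblast markers for 4 of 6 (391, 495 and 572 FPKM in R6/2, against 297, 376 and 436 in wild type). Their part in the members' falls was not tested.

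**Figure D4:**
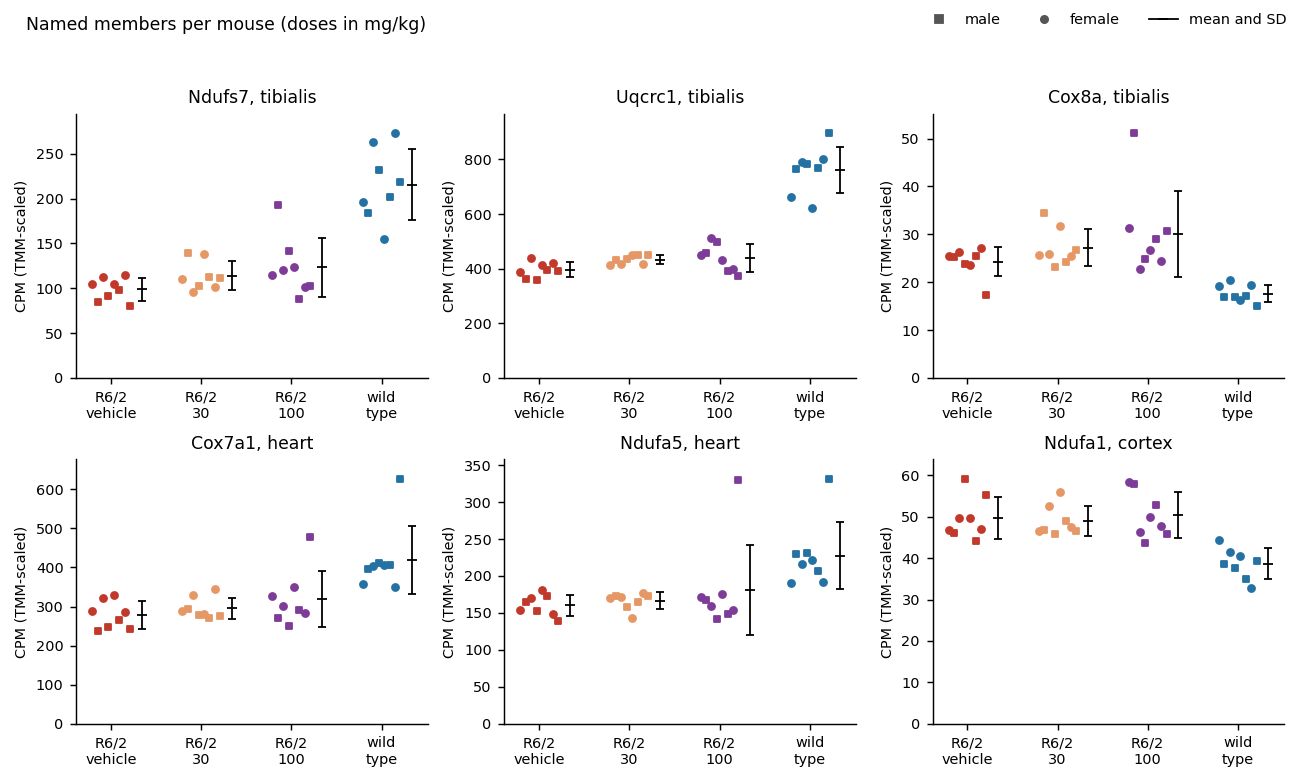
CPM per mouse (vertical axis, TMM-scaled) of Ndufs7, Uqcrc1 and Cox8a in tibialis muscle, Cox7a1 and Ndufa5 in heart and Ndufa1 in cortex, by arm; squares are males, circles females and bars the mean and SD of 8 mice. R6/2 and wild-type mice do not overlap for Ndufs7, Uqcrc1, Cox7a1 and Ndufa5 at vehicle, and both doses lie in the range of R6/2 vehicle or overlap it; on FPKM the muscle differences are smaller for Ndufs7 and Uqcrc1 and larger for Cox8a.

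In cortex more members were higher than lower. Of 93 tested, 35 were higher in R6/2 vehicle mice and 3 lower, with a median log2 fold change of 0.09, against 28.1% higher and 25.8% lower among all 17508 genes and a median of 0.02. R6/2 mice lay entirely above wild-type mice for 6 members and entirely below for 1, and did so for 9.81% and 11.2% of all genes. Without the 4 libraries of few long transcripts 31 were higher and 6 lower, beside 26.8% and 27.2% of all genes. The split also moved with the scaling, to 58 higher and 1 lower on FPKM and to 21 higher and 23 lower with the long-over-short ratio as a covariate. Shares of all genes are not given for those settings, so these counts do not set the members apart from other genes.

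By role, 14 of 29 accessory subunits of complex I, 3 of 4 members of complex II and 6 of 16 of ATP synthase were higher. Among all genes of the cortex 28.1% were higher in R6/2. Members of the other roles were higher as well, Cyc1 and Uqcrc2 of complex III among them. No role was tested against the share of all genes, so these counts do not set a role apart. Ndufa1, a small membrane subunit of complex I encoded on chromosome X, had 44.1, 48.4 and 59.1 CPM in R6/2 and 32.7, 38.9 and 44.3 CPM in wild type. The groups overlapped slightly, and the difference was 0.36 on the log2 scale (SE 0.07, adjusted p = 2.6e-05). Ndufaf6, an assembly factor, differed by 0.34, Ndufa3 by 0.28, Cox6b1, which faces the intermembrane space, by 0.27, and Atp5g1, which encodes the c-ring subunit, by 0.25. Sdha had 425, 450 and 463 CPM in R6/2, against 360, 379 and 387 CPM in wild type, with no overlap (0.25, SE 0.02, adjusted p = 5.3e-10). In striatum Sdha also stood apart, at 435, 444 and 461 CPM in R6/2, against 368, 378 and 396 CPM in wild type (0.23, SE 0.03, adjusted p = 7.8e-08), and its difference was 0.23 in both regions without the libraries of few long transcripts. Lower in cortex were Ndufb4 (-0.17, adjusted p = 0.04), Atp5s (-0.15, adjusted p = 0.026) and Cox6a2.

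Cox6a2 was the member with the steepest fall in brain. Cortex had 0.90, 1.87 and 2.87 FPKM in R6/2, against 3.67, 4.89 and 6.38 FPKM in wild type, and no R6/2 mouse reached the lowest wild-type mouse (-1.45, SE 0.17, adjusted p = 2.3e-08). This heart and muscle form is known to be made in brain by parvalbumin interneurons. The list of parvalbumin interneuron markers fell for 6 of 7 genes in cortex (Pvalb by 0.87, adjusted p = 8.9e-12), and its summed FPKM was 103, 110 and 118 in R6/2, against 152, 164 and 194 in wild type. Lists for neurons at large and for astrocytes moved too, with 4 of 6 and 6 of 7 genes lower. In striatum the parvalbumin list summed to 211.2, 261.5 and 337.5 FPKM in R6/2, against 224.6, 250.6 and 299.2 in wild type, with overlap. The part of these lists in the values of Cox6a2 was not tested. In striatum Cox6a2 had 1.482, 2.56 and 6.96 FPKM in R6/2 and 2.97, 4.51 and 5.48 FPKM in wild type, a difference of -0.64 (adjusted p = 0.082) that became -1.06 (adjusted p = 0.00014) without the libraries of few long transcripts.

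The striatum comparison moved with the libraries of few long transcripts. With all libraries 12 of 93 members were higher in R6/2 and 0 lower (DESeq2 gave 11 and 0), with a median log2 fold change of 0.25, against 22.6% higher and 19.8% lower among all 17428 genes. In 1 R6/2 vehicle male the members took 2.31% of nuclear counts, against 1.16% in the next highest R6/2 vehicle mouse. Without the 4 libraries of few long transcripts, this male among them, 16 members were higher and 20 lower with a median of -0.04, beside 29.0% and 26.1% of all genes. Ndufc1, a small accessory subunit, had 31.5, 33.6 and 171 CPM in R6/2 and 27.9, 31.5 and 32.9 CPM in wild type, so its difference of 0.66 became 0.12 without those libraries. The differences of Ndufc2 and Ndufb6, both 0.61, became 0.15 and 0.11, and that of Atp5g1, 0.53, became 0.17.

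Cox6b2, a form of subunit 6b known from testis, had the largest difference of the members called in striatum. It had 1.67, 2.25 and 7.81 CPM in R6/2 and 1.04, 1.24 and 1.73 CPM in wild type, and its log2 fold change was 1.13 (SE 0.23, adjusted p = 0.00019) and 0.78 (adjusted p = 1.3e-05) without the libraries of few long transcripts. It was higher in cortex as well, at 2.70, 3.81 and 4.44 FPKM in R6/2, against 1.72, 2.36 and 2.87 FPKM in wild type (0.61, adjusted p = 4.4e-05). All 8 markers of striatal projection neurons fell in striatum, with summed FPKM of 791, 1021 and 1367 in R6/2, against 1985, 2853 and 3351 in wild type, and whether this bears on the members was not tested.

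Liver had few changes among the respiratory chain genes. Of 89 tested, 2 were higher in R6/2 and 2 lower, with a median log2 fold change of -0.01, against 6.5% and 6.32% of all 14931 genes. Without the 2 libraries of few long transcripts 17 were lower and 2 higher (median -0.12), beside 7.67% lower and 7.21% higher among all genes. On FPKM the count was 8 higher and 0 lower, with no share of all genes given on that scale. Sdha had 482, 527 and 555 CPM in R6/2, against 505, 598 and 700 CPM in wild type (-0.18, SE 0.05, adjusted p = 0.021), and Ndufs1, the largest core subunit of complex I, had 117, 136 and 155 CPM in R6/2, against 133, 159 and 180 CPM in wild type (-0.20, SE 0.06, adjusted p = 0.032).

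The members that rose in liver were scarce forms of complex IV subunits. Cox7a1 had 1.94, 3.31 and 6.89 FPKM in R6/2 livers, against 1.30, 1.70 and 2.18 FPKM in wild-type livers (0.99, SE 0.23, adjusted p = 0.0037). Cox6b2 had 0.527, 0.698 and 1.21 FPKM in R6/2, against 0.0566, 0.304 and 0.463 FPKM in wild type, without overlap (1.5, SE 0.37, adjusted p = 0.0063). Cardiomyocyte markers summed to 0.315, 0.636 and 44.3 FPKM in R6/2 livers and 0.186, 0.614 and 19.6 FPKM in wild-type livers, and fast fibre markers to at most 1.42 FPKM.

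Several complex IV and ATP synthase subunits exist as pairs of genes, and the ratio of both forms within a library does not depend on the scaling between libraries. The log2 ratio of FPKM (pseudocount 0.1) was compared in 114 tests with an exact permutation of arms within sex, over 4900 assignments, and p-values were adjusted over all of them. Of these, 16 passed for R6/2 vehicle against wild type, 1 for 30 mg/kg and 0 for 100 mg/kg. The smallest p the permutation can give is 0.000408.

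In tibialis muscle each of the 3 heart and muscle forms lost ground to its widely expressed partner. Cox8b over Cox8a had a mean log2 ratio of 4.28 ± 0.13 in R6/2 and 4.98 ± 0.18 in wild type (SD, n = 8 each), a difference of -0.70 (exact permutation, adjusted p = 0.0047). Cox6a2 over Cox6a1 averaged 4.29 ± 0.11 in R6/2 and 4.83 ± 0.16 in wild type, a difference of -0.54, and Cox7a1 over Cox7a2 averaged 1.13 ± 0.09 in R6/2 and 1.49 ± 0.05 in wild type, a difference of -0.36. In all 3 pairs every R6/2 mouse lay below every wild-type mouse, and the adjusted p was the same as for Cox8b. On FPKM both forms of subunit 8 had higher medians in R6/2 muscle: Cox8b had 667, 1046 and 1124 FPKM in R6/2, against 636, 706 and 939 FPKM in wild type, while Cox8a had 35.5, 52.1 and 54.7 FPKM in R6/2, against 18.6, 22.5 and 27.8 FPKM in wild type. In TMM-scaled counts the muscle forms Cox6a2 and Cox7a1 were lower (-0.66 and -0.43) and Cox6a1 and Cox7a2 did not pass (-0.10 and -0.07). Atp5g1 over Atp5g3, genes that encode the same c-ring subunit with different targeting sequences, averaged -0.30 in R6/2 and -0.08 in wild type (difference -0.21, adjusted p = 0.0047).

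Heart showed smaller shifts of the same sign in these pairs. Cox7a1 over Cox7a2 averaged 1.42 ± 0.16 in R6/2 and 1.72 ± 0.12 in wild type (difference -0.30, exact permutation, adjusted p = 0.019), and Cox6a2 over Cox6a1 averaged 3.73 ± 0.26 in R6/2 and 4.01 ± 0.14 in wild type (difference -0.28, adjusted p = 0.026), with overlap in both. Cox8b over Cox8a had a difference of -0.24 that did not pass (adjusted p = 0.12). Ndufa4l2 over Ndufa4, a pair in which the first is known as a hypoxia-induced relative of the complex IV subunit, averaged -6.49 in R6/2 and -6.92 in wild type (difference 0.43, adjusted p = 0.013).

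Brain and liver gave other ratios. Cox6a2 over Cox6a1 averaged -7.47 ± 0.55 in R6/2 cortex and -5.79 ± 0.21 in wild-type cortex (difference -1.68, exact permutation, adjusted p = 0.0047), and the difference in striatum was -1.03 (adjusted p = 0.0047). Cox6b2 over Cox6b1 was higher in R6/2 in cortex (0.36, adjusted p = 0.020), striatum (0.74, adjusted p = 0.0047) and liver (1.32, adjusted p = 0.0047), the last falling to 0.41 with a pseudocount of 1. Cox7a1 over Cox7a2 averaged -5.07 ± 0.56 in R6/2 livers and -6.17 ± 0.24 in wild-type livers (difference 1.10, adjusted p = 0.0047). Cox4i2 over Cox4i1 differed by -0.53 in striatum (adjusted p = 0.022), and Atp5g1 over Atp5g3 by 0.16 in cortex (adjusted p = 0.0047) and 0.18 in striatum (adjusted p = 0.020), the opposite sign to muscle.

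**Figure D5:**
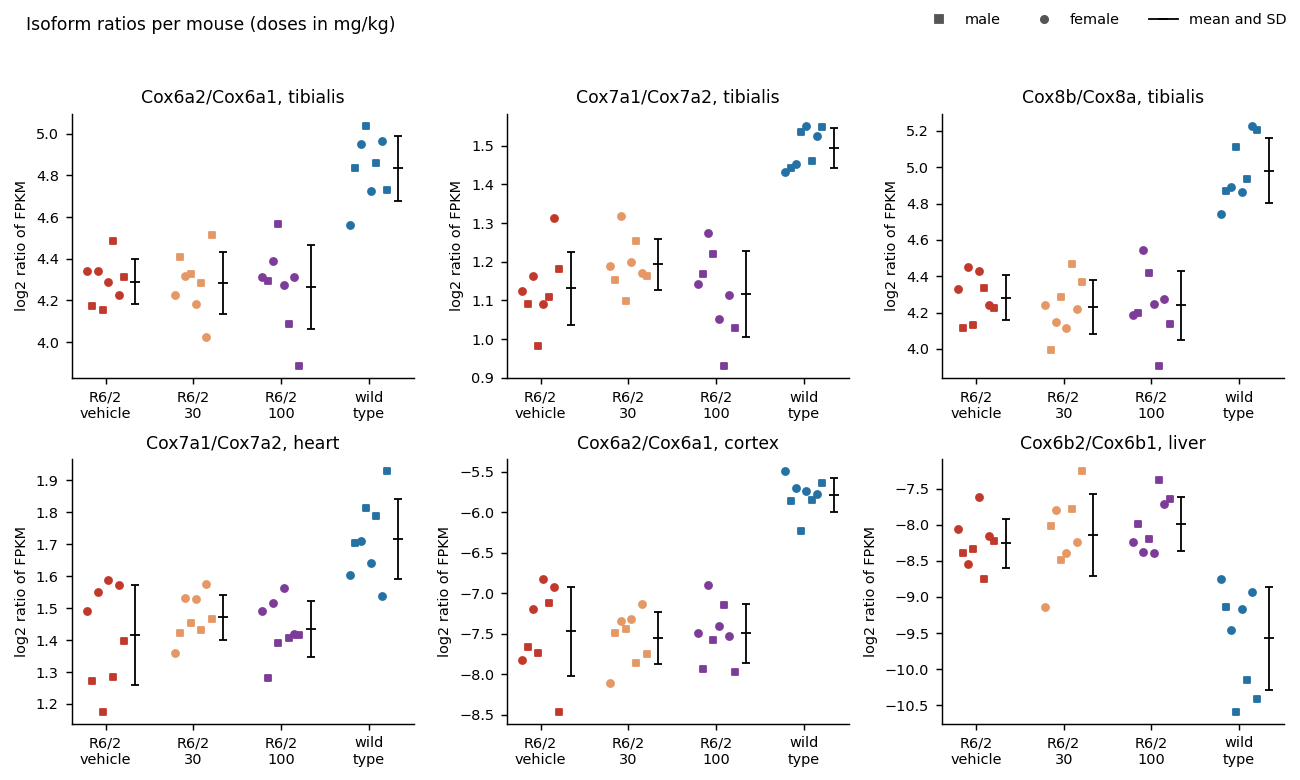
Log2 ratio of FPKM within gene pairs (vertical axis) per mouse and arm for 6 pairs and tissues; squares are males, circles females and bars the mean and SD of 8 mice. R6/2 vehicle sits apart from wild type for the 3 pairs of tibialis muscle, with means of 4.28 and 4.98 for Cox8b over Cox8a. Both doses sit with R6/2 vehicle. For Cox6a2 over Cox6a1 the highest mouse at 100 mg/kg (4.567) reached the lowest wild-type mouse (4.562).

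The genotype difference of a member was also compared between tissues of the same mice, by subtracting the log2 CPM of one tissue from that of another in each mouse. For a wild-type mouse labelled female the heart library matched the sex label and the cortex library did not. The pairing of tissues is thus in doubt for that mouse, which was kept. Between cortex and heart 81 of 92 members had a higher difference in cortex and 1, Cox6a2 (-1.12), a lower one, against 21.4% higher among all genes. The smallest p belonged to Ndufa9, an accessory subunit near the quinone pocket, at 0.49 (SE 0.07, limma adjusted p = 2.9e-06), and next by p were Uqcrc2 at 0.41, Atp5b at 0.40, Atp5a1 at 0.38 and the assembly factor Ndufaf1 at 0.47. Between heart and tibialis 17 members were less reduced in heart and 1, Cox8a (-0.60), had the opposite sign, against 14.7% higher and 15.2% lower among all genes; on FPKM 0 were higher and 69 lower (median of all genes -0.50). Uqcrc1 differed by 0.65, Ndufaf4 by 0.55 and Uqcrc2 by 0.50 on scaled counts. Striatum and cortex differed for 0 members of 93 (2 at an unadjusted p under 0.05), beside 11.2% of all genes, and for 1 higher and 14 lower without the libraries of few long transcripts.

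Put side by side, 26 members were lower in both heart and tibialis and higher in cortex, and 39 were lower in both muscles and past the test in neither direction in cortex. Among the 14271 genes tested in all of these tissues the same combinations held 1.63% and 2.33%. These counts and shares are on TMM-scaled counts. On FPKM most members were higher in tibialis and few lower, as given above, so few could meet either combination. Changes of at least 0.2 on the log2 scale in opposite directions were found for 16 members, also on scaled counts. The 8 with the largest mean absolute change are given here. The share of all genes that meet this criterion is not given. Atp5g1 had 0.25 in cortex, 0.53 in striatum, -0.71 in tibialis and -0.39 in heart, all past the test. Ndufb6, Ndufc1, Ndufc2, Ndufa3 and Ndufb11 were higher in cortex by 0.18 to 0.28 and lower in tibialis and heart by values between -0.48 and -0.34. Cyc1 had 0.15 in cortex, 0.37 in striatum, -0.74 in tibialis and -0.27 in heart, and Cox7a1 combined -0.60 in heart with 0.99 in liver. On FPKM the tibialis values were -0.07 for Atp5g1 and -0.09 for Cyc1, neither past the test, and between 0.18 and 0.31 for Ndufb6, Ndufc1, Ndufc2, Ndufa3 and Ndufb11. The striatum values shrink without the libraries of few long transcripts. Ndufc1 and Cyc1 reached a rise of 0.2 in striatum alone, so their place among the 16 depends on that tissue.

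Dosing with CHDI-00390576 moved no member past the test. In each tissue and at both doses 0 members were called, beside 0.0% of all genes at 30 mg/kg in each tissue, and at 100 mg/kg 0.00571% in cortex, 0.0% in striatum, 0.0% in tibialis, 0.0126% in heart and 2.06% in liver. At an unadjusted p under 0.05, 68 of 92 members in tibialis, 6 of 92 in heart, 4 of 89 in liver, 1 of 93 in striatum and 0 of 93 in cortex differed at 100 mg/kg. The shares of all genes above belong to the adjusted test. None is given at the unadjusted cutoff, so these counts and those that follow do not set the members apart from other genes. At 30 mg/kg these counts were 0 in tibialis, 2 in heart, 1 in liver, 5 in striatum and 2 in cortex. Without the libraries of few long transcripts they were 44 in tibialis, 2 in heart, 23 in liver, 1 in striatum and 0 in cortex at 100 mg/kg, and 9, 3, 9, 1 and 0 in the same order at 30 mg/kg. With the long-over-short ratio as a covariate tibialis had 2 and liver 32 at 100 mg/kg. Without the libraries whose column names carry a second form of tag these counts were 13 and 0. What that tag marks is not stated. In liver it was on 4 libraries of R6/2 vehicle, 4 at 30 mg/kg, 1 at 100 mg/kg and 1 of wild type. DESeq2 also called 0 members at both doses in each tissue.

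The tibialis values at 100 mg/kg lay on one side. All 92 members had a positive difference from R6/2 vehicle, with a median of 0.20 on the log2 scale beside 0.00 for all genes. Ndufv2, a core subunit of complex I, came closest, with 253, 272 and 303 CPM at vehicle, 277, 283 and 304 CPM at 30 mg/kg and 271, 305 and 412 CPM at 100 mg/kg. The ranges overlapped, and the difference at 100 mg/kg was 0.21 (SE 0.07, adjusted p = 0.30). Without the library of few long transcripts in that arm and the one in wild type the median was 0.11 and 91 of 92 values were positive. The long-over-short ratio had medians of 1.97 at vehicle, 1.88 at 30 mg/kg and 1.82 at 100 mg/kg. With this ratio as a covariate the median at 100 mg/kg was 0.02 and 64 of 92 values were positive. Uqcrc1 had 358, 393 and 439 CPM at vehicle, 414, 434 and 452 CPM at 30 mg/kg and 373, 440 and 511 CPM at 100 mg/kg, all below the 623 CPM of the lowest wild-type mouse in scaled counts.

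Elsewhere the differences from vehicle were smaller or moved with a few libraries. The medians at 30 mg/kg were 0.08 in tibialis, 0.04 in heart, -0.06 in liver, -0.05 in cortex and -0.28 in striatum, and without the libraries of few long transcripts they were 0.08, 0.04, 0.05, -0.01 and 0.00 in the same order. Those at 100 mg/kg were 0.15 in heart, 0.07 in liver, 0.02 in cortex and 0.00 in striatum, and without these libraries they were 0.04, 0.08, -0.05 and 0.03. The sign thus turned in liver at 30 mg/kg and in cortex at 100 mg/kg. Of smallest p at 30 mg/kg were the accessory subunits Ndufb3 in cortex (-0.12) and Ndufb4 in striatum (-0.56, or -0.09 without those libraries) and the assembly factor Ndufaf7 in liver (0.18). At 100 mg/kg they were the accessory subunit Ndufb2 in cortex (0.09) and the assembly factor Ndufaf2 in striatum (0.24), and none of these 5 passed the test. Ndufaf4 in heart had 46.2, 52.2 and 61.5 CPM at vehicle, 52.6, 57.4 and 65.7 CPM at 30 mg/kg and 52.2, 56.3 and 66.6 CPM at 100 mg/kg, differences of 0.14 and 0.16 that did not pass (adjusted p = 0.9998 and 0.34). Ndufa10 in liver had 81.5, 93.6 and 110 CPM at vehicle and 92.3, 99.8 and 168 CPM at 100 mg/kg, a difference of 0.22 that passed on FPKM (0.28, adjusted p = 0.0031) but not on counts (adjusted p = 0.16). Among the gene pairs Atp5g1 over Atp5g3 in liver averaged -1.02 at 30 mg/kg and -1.14 at vehicle (difference 0.12, exact permutation, adjusted p = 0.044), and this call was lost without the minimum of 0.5 FPKM. The muscle ratios stayed at their R6/2 level, with Cox8b over Cox8a at 4.28, 4.23 and 4.24 for vehicle, 30 and 100 mg/kg.

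No member passed the test for a different genotype effect in male and female mice. The difference of the effects, males minus females, was past the test for 0 members in each tissue, and for 0.0% of all genes in cortex and striatum, 0.0508% in tibialis, 0.00632% in heart and 1.79% in liver. At an unadjusted p under 0.05 the counts were 1 in cortex, 2 in striatum, 1 in tibialis, 10 in heart and 14 in liver, with no share of all genes given at that cutoff. The median difference of the members was 0.45 in striatum, -0.26 in heart and -0.28 in liver on the log2 scale. For striatum, heart and liver the libraries of few long transcripts in these arms are from 1 R6/2 male, 1 wild-type male and 1 R6/2 female, in that order. Cortex held 1 among the R6/2 vehicle mice and tibialis 1 among the wild-type mice. The part of these libraries was not tested. With 4 mice per sex and arm such differences carry a wide error. Sexes were taken as labelled. The test was not repeated without the wild-type females in cortex and striatum whose libraries did not match their sex label.

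Genes that work with the respiratory chain were taken from lists by function. Beside the counts of lower genes in these lists, 22.2% of all genes were lower in tibialis and 7.46% in heart. On FPKM 3.47% of all genes were lower and 83.7% higher in tibialis, and list counts are not given on that scale. In tibialis the citric acid cycle was lower for 14 of 16 genes in scaled counts (median -0.55), the 13 mitochondrial genome-encoded subunits for 13 of 13 (-0.83), assembly factors outside the naming rule for 22 of 39 (-0.31) and import and outer membrane genes for 10 of 15 (-0.31). Idh3b, a subunit of isocitrate dehydrogenase, differed by -0.92 in muscle, the mitochondrial creatine kinase Ckmt2 by -0.89, the outer membrane channel Vdac3 by -0.84 and mt-Co1, the catalytic subunit of complex IV, by -1.01; on FPKM these were -0.27, -0.23, -0.19 and -0.36. Mitochondrial transcripts took 18.02, 19.9 and 21.4% of counts in R6/2 muscle, against 22.0, 23.7 and 24.6% in wild-type muscle. Heart was lower for 11 of 16 citric acid cycle genes (-0.22), 4 of 13 mitochondrial genome-encoded subunits (-0.17), 23 of 39 assembly factors (-0.24) and 9 of 15 import genes (-0.22). Slc25a4, the ADP/ATP carrier of heart and muscle, differed by -0.47 there, Higd1a by -0.39 and Pdhb of pyruvate dehydrogenase by -0.34.

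Transcription regulators of mitochondrial genes followed no common course. Ppargc1a, the coactivator PGC-1 alpha, had 0.02 in tibialis and -0.16 in heart, neither past the test, but -0.23 in cortex (adjusted p = 0.00013) and -0.55 in liver (adjusted p = 0.031). Its relative Ppargc1b differed by -0.89 and the muscle regulator Perm1 by -0.83 in tibialis, and the mitochondrial DNA-binding protein Tfam by -0.46 (adjusted p = 1.4e-08; 0.34 on FPKM). Nrf1 was higher in cortex (0.33, adjusted p = 1e-09) and striatum (0.27, adjusted p = 0.00011), with no overlap in either, and had -0.04 in tibialis and 0.04 in heart. Esrra, an oestrogen-related receptor, was lower in striatum (-0.45, adjusted p = 0.00034) and past the test in no other tissue. Of 19 regulators 8 were lower and 2 higher in tibialis, 0 changed in heart, and 5 were higher and 7 lower in cortex. Among all genes 22.2% were lower and 23.6% higher in tibialis, and 7.46% lower and 6.96% higher in heart. In cortex these shares were 25.8% lower and 28.1% higher. The lists were not tested against these shares. Cortex had 8 of 16 citric acid cycle genes higher and 1 lower, with Pdha1 of pyruvate dehydrogenase at 0.26, while the mitochondrial creatine kinase Ckmt1 was lower, with a difference of -0.51.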

How the data were processed

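Expected counts per gene were used as the authors deposited them, an estimated number of reads not scaled to depth or length (68.15% of values above 0 are whole), and FPKM as the authors deposited it, scaled to transcript length and library size. CASAVA 1.8.2 is named per the submitters' processing notes. Which aligner, quantification program and build made the tables is not given in the sources used here. Unused value columns number 0. Symbols and lengths came from GENCODE M21 (GRCm38), promoter sequences from RefSeq (GRCm38.p6).

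Separately per tissue (32 libraries), edgeR 4.0.16 under R 4.3.3 was run on rounded expected counts, with filterByExpr by arm, TMM, quasi-likelihood test with arm and sex, Benjamini-Hochberg adjustment over all genes, threshold 0.05. SEs were derived from the F statistic and the size of the log2 fold change. CPM are TMM-scaled. Tissue differences used limma 3.58.1 on log2 CPM (prior count 2) within mice. DESeq2 1.42.0 and limma-trend on log2(FPKM + 0.1), for genes with a mean of at least 0.5 FPKM, were alternatives; a fold change on that scale understates low genes. Ratios used an exact, two-sided permutation within sex. The fits were tested on simulated data.

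The replicates are 8 separate mice per arm. Counting intervals do not apply, since the spread between mice sets the errors. Named genes: per tissue the 5 largest rises and 5 steepest falls past the test with mean log2 CPM of at least 1, the smallest p where a dose gave none, up to 5 tissue differences, opposite changes of at least 0.2, isoform pairs, complex II, Cyc1, extremes of level, and up to 3 genes per pathway list. 1 gene that the rule named is not reported here. Genes outside this rule were Ndufa9, Atp5b, Atp5a1, Cox4i1 and Cox6c in the paragraphs on single tissues, and members listed as exceptions to a count or an order, all named after their values were seen. The members and lists were chosen with earlier results of these data known.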

Additional observations from a re-analysis of the deposited data

Results flagged for a closer look

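In 102 groups of 8 libraries the highest and the lowest value were compared with the nearest of the others. A library stood apart in 16 groups, 13 of them with a library of few long transcripts; chance alone marks about 1 in 20 groups.

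The members' share of nuclear counts stood apart in 6 groups. It was 1.158% in a 30 mg/kg female in cortex (next 1.09%), 2.307% in an R6/2 vehicle male in striatum (next 1.163%), 5.156% in a 100 mg/kg male in tibialis (next 4.036%) and 6.552% in a 100 mg/kg male in heart (next 4.882%). In wild type it was 0.815% in a female in cortex (next 0.925%) and 6.24% in a male in heart (next 5.29%).

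The same R6/2 vehicle male in striatum had 171.2 CPM of Ndufc1 (next 36.0), 269 CPM of Ndufc2 (next 64.8), 177.4 CPM of Ndufb6 (next 40.1), 408.5 CPM of Atp5g1 (next 127.8) and 7.81 CPM of Cox6b2 (next 2.53). The same wild-type male in heart had 626.8 CPM of Cox7a1 (next 411), 331.4 CPM of Ndufa5 (next 231), 211 CPM of Ndufv3 (next 162) and 200.4 CPM of Ndufc1 (next 134). An R6/2 vehicle male in tibialis had 17.4 CPM of Cox8a (next 23.6), and that library is not among those of few long transcripts.

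The genotype difference of named members differed between tissues of the same mice (limma). Cortex minus heart gave 0.49 for Ndufa9, 0.41 for Uqcrc2, 0.40 for Atp5b, 0.38 for Atp5a1 and 0.47 for Ndufaf1 on the log2 scale. Heart minus tibialis gave 0.55 for Ndufaf4, 0.65 for Uqcrc1, 0.50 for Uqcrc2 and 0.39 for Ndufa10.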

How the results depend on the processing

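Counts are given as higher and lower members of R6/2 vehicle against wild type. Shares of all genes, where given, are in the paragraphs on single tissues. Cortex (35 and 3) gave 58 and 1 with library size alone, 58 and 1 on FPKM with either pseudocount and 51 and 1 on FPKM with no filter. It gave 21 and 23 with the length covariate (median -0.022). Without the libraries whose column names carry a second form of tag 23 were higher. In cortex that tag was on 3 libraries of wild type and 1 at 100 mg/kg. Without the cortex libraries at odds with their sex label 1 was lower, and without those of few long transcripts 6 were lower. Striatum (12 and 0) gave 5 higher with the compared groups alone, 7 higher with the replicate block, 42 with library size, 28, 34 and 36 on FPKM (no filter, pseudocounts 0.1 and 1; 1 lower in each), 22 lower with the covariate (median -0.042) and 20 lower without the libraries of few long transcripts (median -0.040). Tibialis (1 and 79) gave 51 and 2 with library size (medians 0.21 for members, 0.68 for all genes), 49 and 2 on FPKM with no filter, 52 and 2 with either pseudocount (medians 0.22 and 0.21), 18 and 30 with the covariate (median 0.00080) and 2 higher without the libraries of few long transcripts. Heart (72 lower) gave 30 with library size, 8, 32 and 31 on FPKM (no filter, pseudocounts 0.1 and 1) and 24 with the covariate. Liver (2 and 2) gave 1 and 0 with the compared groups alone, 8 and 0 with library size and with either FPKM pseudocount, 5 and 0 on FPKM with no filter, 4 higher with the covariate, 0 lower with no filter on counts, 1 and 0 without the second tag form, and 17 lower without the libraries of few long transcripts.

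At 100 mg/kg in liver 1 member was called, against 0, with library size, on FPKM under each setting and without the libraries of few long transcripts, and 5 with the covariate. Heart minus tibialis (17 and 1) gave 0 and 69 on FPKM, 2 lower with no trend and 8 lower without the libraries of few long transcripts, and on FPKM Uqcrc2 had -0.057 and Ndufa10 -0.17. Striatum minus cortex (0 and 0) gave 1 higher on FPKM, and 1 and 14 without the libraries of few long transcripts. The ratio called at 30 mg/kg was lost with no minimum (0). The cause of these moves was not tested. Same-numbered R6/2 vehicle and wild-type mice had a correlation over 0.1 in 5 of 8 pairs in heart, 3 in striatum, 3 in liver, 1 in cortex and 0 in tibialis, so the numbers were not taken as pairs. The block moved no other count of called members by over 1.5 times; at an unadjusted p under 0.05 it left 0 in striatum (5 without it) and 0 in liver (1 without it) at 30 mg/kg.

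Depth, at 30.1 M counts or more, was not the limit for most members. Cox8c was too low to be tested in any tissue, and Cox7b2 was tested in cortex and striatum alone.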
